A study of Mus musculus with 531 samples.

Results

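The cells described here are the primitive endoderm of mouse embryos at E4.5 and the cells chosen as visceral endoderm at E5.5 and E6.5, where E is the embryonic day. They are 104 of the 264 single cells with RNA counts in the series, chosen from the 217 cells that held at least 50000 reads and 2000 detected genes. Levels are given as CPM, the share of a gene in the reads on genes, scaled to 1000000 reads, and L stands for log2(CPM + 1). At E4.5, a cell was taken as primitive endoderm when the mean L of Gata6, Pdgfra, Cubn and Dab2 exceeded that of Fgf4, Tdgf1 and Slc7a3 by at least 1, which chose 51 of 75 kept cells. At E5.5, the visceral endoderm was the cells whose number in the labels is a multiple of 12, which chose 8 of 59. At E6.5, cells with at least 7000 genes were taken when the mean L of Amn, Apoa1, Cubn and Dab2 exceeded that of Pou5f1, Tdgf1, Utf1, Pou3f1 and Fgf5, which chose 45 of 83. The difference between the 2 means is called the margin below.

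All embryos were C57Bl/6Babr, the labels name no treatment or altered gene, and RNA and bisulfite-treated DNA were read from each single cell. The 51 E4.5 cells came from what the labels name as 5 embryos, with 9, 4, 5, 19 and 14 cells, the 8 E5.5 cells came from 1 embryo, and the 45 E6.5 cells came from 2 embryos with 27 and 18 cells. Per the study's methods, trophectoderm was removed before E4.5 cells were picked, the visceral endoderm was pulled away from the epiblast at E5.5, and extraembryonic tissue was dissected off at E6.5, so the E6.5 cells are those that this dissection left. The study's methods give fewer embryos at E4.5 than the labels, so the number of E4.5 replicates is uncertain, and the SEs and p-values below rest on the labels. The cells labelled E4.5 embryo 5 were not alike in 4 genes of the Y chromosome: 7 of its 14 endoderm cells had reads of them, 6 at 10 CPM or more, while 1 of its 4 epiblast-side cells had a single read. In E4.5 embryo 4 all 19 and all 5 such cells had reads, at 12.5 CPM or more, and in the chosen cells of the other 3 E4.5 embryos none did. Whether cells of more than 1 embryo carry the label of embryo 5 was not tested. Without embryo 5, 827 genes in place of 977 were called at E6.5 against E4.5 and 2110 in place of 2051 at E5.5, and 7 of 109 and 2 of 95 calls of named genes were lost. Cells of 1 embryo are not replicates, so counts were summed over the chosen cells of each embryo and the 8 sums were compared.

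Primitive endoderm forms in the inner cell mass as an epithelium facing the blastocyst cavity. After implantation it gives rise to the visceral endoderm, which wraps the egg cylinder, and to the parietal endoderm, which migrates over the trophectoderm and lays down a thick basement membrane. The visceral endoderm nourishes the embryo before the placenta works. It takes up maternal proteins through apical receptors, digests them in lysosomes, and secretes lipoproteins and carrier proteins that the liver makes later in life. Its anterior cells secrete inhibitors of Nodal and Wnt signals, which position the primitive streak in the epiblast.

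The sums held between 1747123 and 56446994 reads. The median number of genes detected per cell was 7052 at E4.5, 4223.5 in the E5.5 embryo and 9330 at E6.5, so the E5.5 cells, at 1165240 to 3352786 reads per cell, held the fewest genes. Fold changes are log2 values with their standard error (SE) from edgeR's quasi-likelihood test, and p-values are adjusted by the Benjamini-Hochberg method over 14211 genes. Over all of these genes the median log2 fold change was −1.21 for E5.5 against E4.5, 0.08 for E6.5 against E4.5 and 1.53 for E6.5 against E5.5, and changes that involve E5.5 are to be read against these shifts. The lone E5.5 embryo was assumed to vary as the others do, the 3 comparisons share embryos, and the 3 stages share no prefix in the labels, so stage and preparation cannot be told apart. In summed counts, fewer cells of a type and less RNA per cell cannot be told apart.

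Margins just inside and just outside the rule are given as a description, since the margin itself chose the cells of E4.5 and E6.5. At E4.5 the 3 lowest margins among the chosen cells were 1.00009, 5.81 and 5.96 with a median of 8.48, and the nearest cells outside had 0.317, 0 and −1.22. The E5.5 cells, chosen by number alone, had margins of 7.47 to 10.1 by the genes of the E6.5 rule, while no other E5.5 cell exceeded −2.41. At E6.5 the lowest margins were 0.0525, 0.0680 and 0.181 with a median of 1.67, the nearest cells outside had −0.0510, −0.230 and −0.243, and 17 of the 45 chosen cells had a margin under 1.

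**Figure D1:**
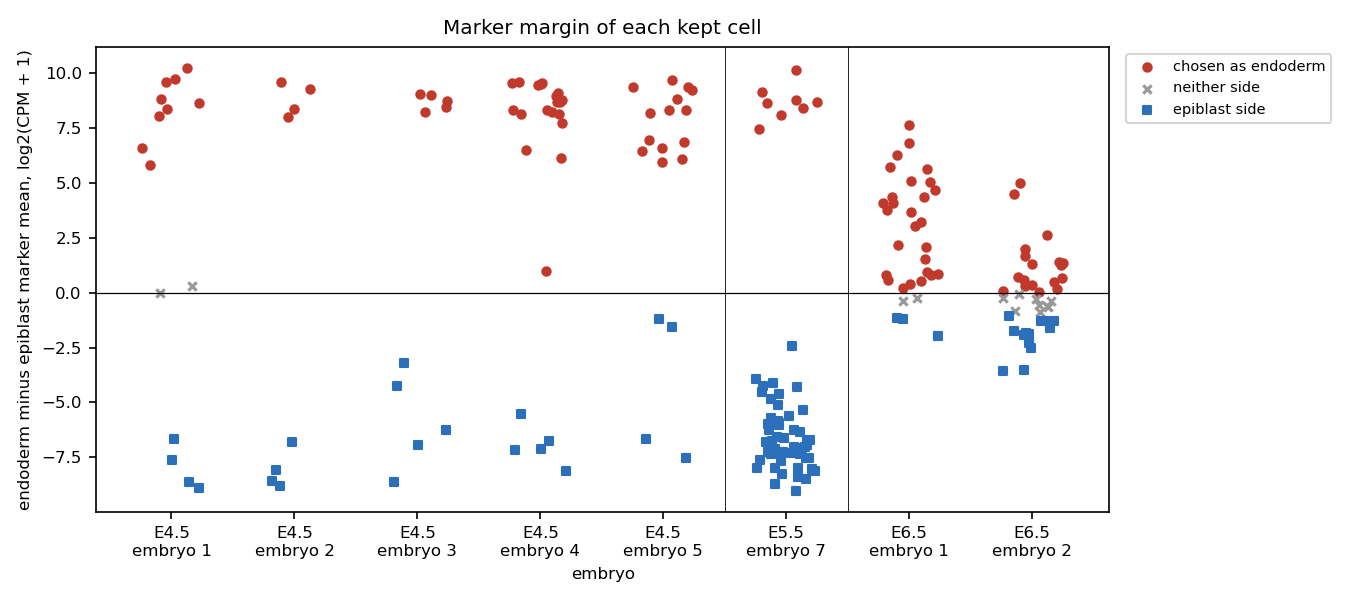
Marker margin of each kept cell (difference of mean log2(CPM + 1), y axis) by embryo (x axis), with chosen endoderm cells in red, epiblast-side cells in blue and cells on neither side as grey crosses; the genes behind the margin differ between stages. All but 1 of the red points lie above 5 at E4.5 and E5.5, while at E6.5 red points run down to the limit at 0, next to the grey crosses, and blue points end at −1.06.

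The chosen E6.5 cells held reads of a visceral endoderm marker outside the rule, and most also held reads of Nanog, an epiblast gene outside it. Sox17, a transcription factor of endoderm that the rule did not use, stood at 109, 76.1, 217, 72.5 and 52.4 CPM in the E4.5 embryos, 55.3 CPM in the E5.5 embryo and 24.3 and 38.8 CPM in the E6.5 embryos. Ttr, the thyroid hormone carrier transthyretin and a visceral endoderm marker outside the rule, had reads in 45 of 45 chosen E6.5 cells, from 301 to 20056 CPM. It also had reads in 16 of the 16 E6.5 cells on the epiblast side, from 93.7 to 445 CPM, while at E5.5 only 2 of 51 epiblast-side cells had a read, at most 0.896 CPM. Pou5f1, which encodes the pluripotency factor Oct4 and was used by the rule, had reads in all chosen E6.5 cells, and in the 8 E5.5 cells it reached at most 1.74 CPM. As a description of what the rule took in, its median was 844 and 1223 CPM in the chosen cells of embryos 1 and 2 with a margin under 1, against 1449 and 1547 CPM on the epiblast side of these embryos. Nanog, another pluripotency factor, had reads in 41 of 45 chosen E6.5 cells, at a median of 54.6 and 56.7 CPM in the 8 and 9 cells of embryos 1 and 2 with a margin under 1, and of 1.70 and 23.1 CPM in the 16 and 2 cells with a margin of at least 3.

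Markers of other lineages had reads in chosen E6.5 cells, but not alike in both embryos. Mesp1, a gene of nascent mesoderm, had reads in 6 of 9 cells of embryo 2 with a margin under 1, at a median of 174 CPM, and T (brachyury) in 7 of 9, at a median of 64.9 CPM. In embryo 1, 2 of 8 such cells had Mesp1 reads and 1 of 8 had T reads, at most 1.34 and 3.03 CPM. Elf5, a gene of extraembryonic ectoderm, had reads in 8 of 8 cells of embryo 1 with a margin under 1, at a median of 53.6 CPM, and in 14 of 16 with a margin of at least 3, at a median of 23.3 CPM. In embryo 2 it had reads in 3 of 9 cells of margin under 1, at most 79.96 CPM, and in 1 of the 2 cells of margin at least 3, at 236.7 CPM. The name visceral endoderm is thus not borne out by the markers of all 45 cells, which are called by their rule, the cells chosen at E6.5. A margin of at least 3 kept 18 of the 45 cells, 16 in embryo 1 and 2 in embryo 2, and the calls lost under that choice, which was made after seeing the data, are given beside some of the results and together after the stage comparisons.

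The 13 genes of the rule are described without a test, because they chose the cells. Gata6, the factor that sets the primitive endoderm fate, stood at 96.8 to 189 CPM in the E4.5 sums, 24.03 CPM at E5.5 and 13.8 and 11.1 CPM in the E6.5 embryos. Pdgfra, a growth factor receptor of primitive endoderm, stood at 159 to 248, 26.2 and 19.2 and 7.17 CPM in the same order. Both were lower in each later sum than in any E4.5 sum. Apoa1, the main protein of high-density lipoprotein, ran the other way, from 0 to 3.78 CPM at E4.5 to 6647 CPM at E5.5 and 2671 and 1218 CPM at E6.5. The uptake receptor cubilin (Cubn) stood at 1600.4 to 3864, 704 and 699 and 255 CPM, its partner amnionless (Amn) at 567 to 1936, 2213 and 583 and 323 CPM, and the endocytic adaptor Dab2 at 1005 to 2331, 952 and 518 and 227 CPM. All 3 were detected in every embryo.

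Fgf4, the ligand by which the epiblast drives primitive endoderm fate, did not exceed 2.59 CPM in any embryo. Among the other epiblast genes of the rule, Pou5f1 stood at 285 to 730.3, 0.447 and 230.2 and 850.0 CPM, Utf1 at 59.6 to 291, 62.6 and 112 and 222 CPM, and Fgf5 at 0 to 61.1, 137 and 66.1 and 80.5 CPM. Tdgf1, the Nodal co-receptor Cripto, stood at 0 to 24.02 CPM at E4.5, 0.128 CPM at E5.5 and 154 and 121 CPM at E6.5. Pou3f1 (Oct6) and the amino acid transporter Slc7a3 reached 33.96 and 48.3 CPM and 55.8 and 133 CPM in the E6.5 embryos, against at most 0.420 and 5.06 CPM at E4.5. In E6.5 cells of margin at least 3, Slc7a3 stood at 28.1 and 2.64 CPM and Pou3f1 at 25.9 and 1.06 CPM.

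Genes for lipoproteins and secreted carrier proteins rose more often than they fell. Of 26 members tested outside the rule, 14 were higher and 2 lower at E5.5 relative to E4.5, against 4.39% and 10.04% of all genes called higher and lower. At E6.5 against E4.5, 14 were higher and 3 lower, against 4.48% and 2.39% of all genes. The median log2 fold changes of the list were 3.36 and 4.87, or 2.12 and 3.81 with members absent at a stage set to their bound. Between E5.5 and E6.5 no member passed the edgeR test (7.33% and 1.61% of all genes were called higher and lower), 3 members were higher and 4 lower at an unadjusted p under 0.05, and DESeq2 called 1 higher and 2 lower.

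Promoters of 3 of these genes are shown because each holds TGTTTAC, a core of the motif of the FOXA forkhead factors of endoderm and liver, or its complement GTAAACA, and because 2 of the genes rose and 1 fell. Each line gives 300 bases from RefSeq (GRCm38.p6), from 250 bases before to 50 bases after the first listed start of the gene, 5′ to 3′ on the gene's strand, with the core in capitals. Apoa2 lies at chr1:171224804-171225103 on the plus strand, Rbp4 at chr19:38125272-38125571 on the minus strand and Cpn1 at chr19:43986471-43986770 on the minus strand.
Apoa2: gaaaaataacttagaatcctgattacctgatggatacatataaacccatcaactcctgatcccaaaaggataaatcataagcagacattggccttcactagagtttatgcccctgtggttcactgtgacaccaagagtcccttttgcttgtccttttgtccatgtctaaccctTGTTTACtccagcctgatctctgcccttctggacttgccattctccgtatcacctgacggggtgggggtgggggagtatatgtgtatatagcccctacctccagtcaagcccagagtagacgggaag
Rbp4: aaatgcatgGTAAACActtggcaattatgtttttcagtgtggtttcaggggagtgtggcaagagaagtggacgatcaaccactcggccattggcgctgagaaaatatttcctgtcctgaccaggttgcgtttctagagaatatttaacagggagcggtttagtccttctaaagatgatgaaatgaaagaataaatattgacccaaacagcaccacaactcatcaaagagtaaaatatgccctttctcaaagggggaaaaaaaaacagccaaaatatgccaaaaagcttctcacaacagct
Cpn1: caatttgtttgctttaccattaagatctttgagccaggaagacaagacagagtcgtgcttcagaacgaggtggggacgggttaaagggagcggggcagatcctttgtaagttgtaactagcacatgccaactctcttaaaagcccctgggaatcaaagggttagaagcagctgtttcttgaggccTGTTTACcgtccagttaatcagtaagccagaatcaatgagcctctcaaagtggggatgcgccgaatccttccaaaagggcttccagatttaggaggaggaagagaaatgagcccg
The core starts 77 bases before the start of transcription in Apoa2, 241 bases before it in Rbp4, where it reads as the complement, and 65 bases before it in Cpn1.

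Over the list, the core stood on either strand in 3 of 22 promoters found in the table (13.6%, the 3 shown), against 3.55% of all 27025 promoters and 0 of 19 promoters of basement membrane genes. The GATA motif AGATAA or TTATCT stood in 3 of 22 (13.6%) against 11.4% of all, and the HNF4 half-site CAAAGTCC or GGACTTTG in 0 of 22 against 1.44%. None of the 3 promoters shown holds the GATA or HNF4 letters. These are matches of letters and carry no measure of binding.

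Of the carriers with the highest levels, Ttr stood at 101, 37.8, 125, 72.2 and 106 CPM in the E4.5 embryos, 2646 CPM in the E5.5 embryo and 6376 and 2381 CPM in the E6.5 embryos. All later sums lay above all E4.5 sums, with a log2 fold change of 5.2004 ± 0.46, adjusted p = 7.84e-07 for E5.5 and 5.83 ± 0.43, adjusted p = 3.12e-08 for E6.5 by edgeR. Spink1, a secreted trypsin inhibitor, was abundant from the start, at 195, 413, 607, 358 and 648 CPM in the E4.5 embryos, 3095 CPM in the E5.5 embryo and 11867 and 6003 CPM in the E6.5 embryos. The groups again did not overlap, with edgeR values of 3.06 ± 0.47, adjusted p = 0.000245 and 4.49 ± 0.41, adjusted p = 5.54e-07 for the 2 later stages, of which the first was lost with E6.5 cells of margin at least 3 (adjusted p = 0.0614). Apob, the structural protein of very-low-density lipoprotein, stood at 0.840, 2.86, 0, 0 and 32.6 CPM in the E4.5 embryos, 1540.3 CPM in the E5.5 embryo and 1035 and 336 CPM in the E6.5 embryos. Only E4.5 embryo 5 held more than 2.86 CPM, and the log2 fold change was 7.79 ± 1.34, adjusted p = 0.000728 at E5.5 and 6.52 ± 1.21, adjusted p = 0.00159 at E6.5 by edgeR.

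Rbp4, the retinol-binding protein of blood, had no read in any E4.5 embryo, 496 CPM at E5.5 and 203 and 115 CPM in the E6.5 embryos. Measured against a floor of 3 reads per embryo, it was at least 736-fold higher at E5.5 and at least 236-fold higher at E6.5 (edgeR adjusted p = 5.72e-09 and 1.95e-08). Afp, alpha-fetoprotein, stood at 2.73, 0, 0, 0 and 0 CPM in the E4.5 embryos, 148 CPM in the E5.5 embryo and 439 and 201 CPM in the E6.5 embryos. Only E4.5 embryo 1 held reads, and the log2 fold change was 8.92 ± 1.11, adjusted p = 3.26e-05 at E5.5 and 9.94 ± 1.08, adjusted p = 4.45e-06 at E6.5. Transferrin (Trf), the iron carrier, stood at 54.4 CPM at E5.5 and 56.1 and 54.1 CPM at E6.5, while only 1 of 5 E4.5 embryos held reads, at 0.336 CPM. Its edgeR values were 8.91 ± 1.05, adjusted p = 1.93e-05 and 8.82 ± 0.99, adjusted p = 7.98e-06.

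Apolipoproteins of the list mostly rose, but not all to the same stage. Apom, a carrier of sphingosine-1-phosphate, stood at 178, 85.9, 57.03, 107 and 262 CPM in the E4.5 embryos, 3392 CPM in the E5.5 embryo and 1698 and 502 CPM in the E6.5 embryos, with 4.89 ± 0.56, adjusted p = 1.40e-05 at E5.5 and 3.17 ± 0.49, adjusted p = 0.000254 at E6.5 by edgeR. Apoa4 stood at 1.47, 10.9, 0, 3.499 and 3.86 CPM in the E4.5 embryos, 1283 CPM in the E5.5 embryo and 1308 and 232 CPM in the E6.5 embryos, and all later embryos lay above all of E4.5 (8.75 ± 0.85, adjusted p = 1.94e-06 and 7.91 ± 0.79, adjusted p = 1.58e-06 by edgeR). Apoe, which was already abundant, stood at 2748, 1391, 886, 1379.5 and 1997 CPM in the E4.5 embryos, 7757 CPM in the E5.5 embryo and 3049 and 2293 CPM in the E6.5 embryos. It passed at E5.5 (2.52 ± 0.42, adjusted p = 0.000528) and not at E6.5 (log2 fold change 0.87, edgeR adjusted p = 0.152), where embryo 2 lay within the E4.5 range. Apoc1 did not pass in either comparison with E4.5, at 144 to 311 CPM at E4.5, 165 CPM at E5.5 and 317 and 59.7 CPM at E6.5.

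Of the smaller carriers, fatty-acid-binding Fabp1 had no read at E4.5 and reached 2.24 CPM at E5.5 and 14.1 and 2.31 CPM at E6.5, at least 3.32-fold higher and at least 12.2-fold higher (edgeR adjusted p = 0.0285 and 0.0139). Fibrinogen beta (Fgb) stood at 0, 0, 13.2, 0 and 0.626 CPM in the E4.5 embryos, 79.2 CPM in the E5.5 embryo and 83.99 and 24.05 CPM in the E6.5 embryos, with 5.24 ± 1.41, adjusted p = 0.0165 and 4.59 ± 1.26, adjusted p = 0.0312 by edgeR, and the E4.5 reads came almost only from embryo 3. The microsomal lipid transfer protein Mttp also passed in both comparisons. Cpn1, a carboxypeptidase subunit of blood, went the other way, at 210.0, 109.9, 92.03, 59.5 and 44.8 CPM in the E4.5 embryos, 8.37 CPM in the E5.5 embryo and 9.76 and 6.97 CPM in the E6.5 embryos, with −3.27 ± 0.93, adjusted p = 0.0218 at E5.5 and −3.37 ± 0.68, adjusted p = 0.00294 at E6.5. Fabp3, the heart-type fatty-acid-binding protein, was lower at E6.5, at 203 and 129 CPM against 258 to 1517 CPM at E4.5 (−2.32 ± 0.55, adjusted p = 0.0121 by edgeR), a call lost in cells of margin at least 3 at a log2 fold change of −2.28 (adjusted p = 0.0757). Albumin (Alb) stood at 0 in all E4.5 and E5.5 embryos and at 3.37 and 0.796 CPM at E6.5, without passing.

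**Figure D2:**
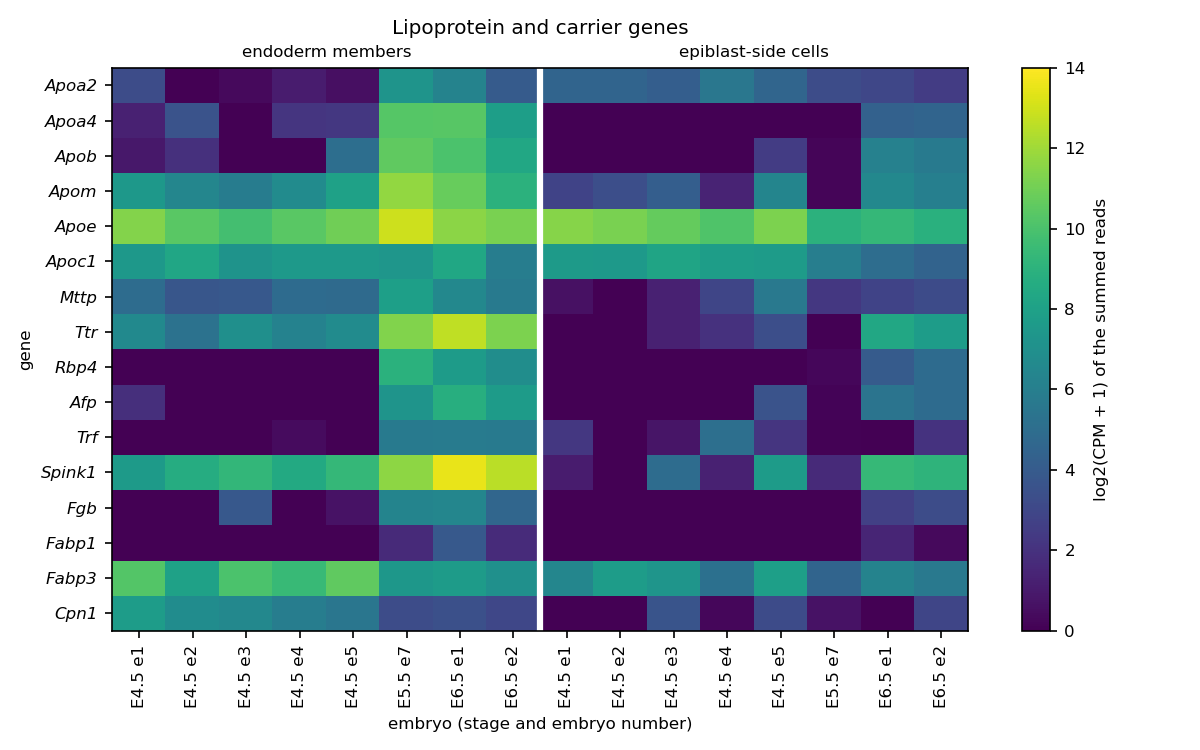
Heat map of log2(CPM + 1) for 16 genes of the carrier list in the chosen endoderm cells (left) and epiblast-side cells (right) of the 8 embryos. Ttr, Apob, Apom and Rbp4 turn brighter between E4.5 and E5.5 in endoderm, are dark on the epiblast side at E5.5, and are present on both sides at E6.5.

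In the uptake and lysosome list, the receptor Lrp2 fell at both later stages, the IgG receptor Fcgrt and cathepsin H rose at both, and cathepsin C rose at E5.5 and fell after it. Of 27 members tested, 5 were higher and 1 lower at E5.5, and 3 higher and 4 lower in the E6.5 embryos, both relative to E4.5, and 4 lower and none higher at E6.5 relative to E5.5. Over all genes, 4.39% were higher and 10.04% lower in the first of these comparisons, 4.48% and 2.39% in the second, and 7.33% and 1.61% in the third. At that last step 2 members were higher at an unadjusted p under 0.05 and DESeq2 called 2, and the 4 lower calls were all lost in cells of margin at least 3. The medians were 0.18, −0.49 and −0.97. Lrp2 (megalin), the giant receptor that works with cubilin, stood at 2247, 2480.1, 2672, 1389 and 3378 CPM in the E4.5 embryos, 551 CPM in the E5.5 embryo and 137 and 62.6 CPM in the E6.5 embryos. Each later embryo lay below all E4.5 embryos, with edgeR values of −1.86 ± 0.60, adjusted p = 0.0406 at E5.5, −4.42 ± 0.52, adjusted p = 1.13e-05 at E6.5 and −2.57 ± 0.56, adjusted p = 0.00772 between them. The E5.5 call was lost without E4.5 embryo 2, 3 or 5, with the E4.5 embryos of either label prefix alone, and in cells of margin at least 3. Its chaperone Lrpap1 stood at 2675, 1731, 1750.3, 1851 and 1787 CPM in the E4.5 embryos, 992 CPM in the E5.5 embryo and 477 and 205 CPM in the E6.5 embryos, with −2.31 ± 0.42, adjusted p = 0.00115 at E6.5, which was not called among cells of margin at least 3 (edgeR adjusted p = 0.757).

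Fcgrt, the receptor that carries immunoglobulin G across epithelia, rose from at most 3.57 CPM at E4.5 to 176 CPM at E5.5 and 19.06 and 14.6 CPM at E6.5 (7.86 ± 0.96, adjusted p = 2.60e-05 and 4.37 ± 0.83, adjusted p = 0.00196 by edgeR). In E6.5 cells of margin at least 3 it stood at 8.61 and 0.705 CPM and did not pass (adjusted p = 0.0574). Among lysosomal proteases, cathepsin H (Ctsh) stood at 149.5, 42.4, 43.03, 84.2 and 262 CPM in the E4.5 embryos, 666 CPM in the E5.5 embryo and 376 and 386 CPM in the E6.5 embryos, with 2.78 ± 0.63, adjusted p = 0.00568 and 1.86 ± 0.54, adjusted p = 0.0392 by edgeR. Cathepsin C (Ctsc) was high at E5.5 alone, at 381, 161, 209.7, 276 and 529 CPM in the E4.5 embryos, 1410.0 CPM in the E5.5 embryo and 262 and 119 CPM in the E6.5 embryos, with 2.46 ± 0.52, adjusted p = 0.00348 into E5.5 and −2.99 ± 0.66, adjusted p = 0.00818 out of it. The cholesterol carrier Npc2 had the same order of levels, at 297 to 339.6, 732 and 243 and 181 CPM. Asah1, lysosomal acid ceramidase, was lower at E6.5, at 36.8 and 20.1 CPM against 261 to 366 CPM at E4.5 (−3.20 ± 0.51, adjusted p = 0.000378 by edgeR). Ctsl, another lysosomal cathepsin, at 1246 to 3462, 2513 and 1888 and 847 CPM, did not pass in any stage comparison.

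Of the basement membrane genes, which make the sheet under the epithelium, about as many were lower as not called at E5.5, and more were lower than not at E6.5. Of 25 members, 12 were lower and 1 higher at E5.5, and 14 were lower and 1 higher at E6.5, both against E4.5, with medians of −1.79 and −2.18. The shares over all genes were 10.04% lower and 4.39% higher at E5.5, and 2.39% and 4.48% at E6.5. Their summed level was 11774 to 18710 CPM in the E4.5 embryos, 3488 CPM at E5.5 and 1758 and 1804 CPM at E6.5. On the epiblast side the same sum was 1923 to 3646, 945 and 1212 and 1674 CPM. With the 18 E6.5 cells of margin at least 3, 8 of 25 members were lower and 2 higher, against 1.85% lower and 10.02% higher calls over the 13273 genes tested in that choice.

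The laminin-111 chains, which build the first basement membranes of the embryo, were all lower. Lama1 stood at 1209, 1063, 1588, 561 and 625 CPM in the E4.5 embryos and 11.53 and 4.38 CPM in the E6.5 embryos (−6.75 ± 0.65, adjusted p = 9.52e-07 by edgeR), and the E5.5 sum held 1 read. Lamb1 stood at 1971, 2089, 2257, 1268 and 1745 CPM in the E4.5 embryos, 87.2 CPM in the E5.5 embryo and 50.3 and 56.1 CPM in the E6.5 embryos. No later embryo came near the lowest E4.5 embryo, with −4.12 ± 0.61, adjusted p = 0.000172 at E5.5 and −4.94 ± 0.46, adjusted p = 6.43e-07 at E6.5 by edgeR. Among E6.5 cells of margin at least 3, Lamb1 was 52.5 and 152 CPM, below every E4.5 embryo. The edgeR call was lost there (log2 fold change −1.93, adjusted p = 0.188). Lamc1 stood at 1509, 1141, 2559.6, 782 and 1242 CPM in the E4.5 embryos, 29.6 CPM in the E5.5 embryo and 27.5 and 33.4 CPM in the E6.5 embryos, with −5.29 ± 0.76, adjusted p = 0.000124 and −5.36 ± 0.55, adjusted p = 2.00e-06, and kept its call there. In single cells, Lamb1 ranged from 31.9 to 8502 CPM at E4.5, from 0 to 173 CPM at E5.5 and from 0.468 to 157 CPM at E6.5.

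Collagen IV and proteins that bind it were lower too. Col4a1 stood at 1031, 807, 1038, 476 and 630.5 CPM in the E4.5 embryos, 274 CPM in the E5.5 embryo and 122 and 63.7 CPM in the E6.5 embryos. Only E6.5 passed by edgeR (−2.88 ± 0.47, adjusted p = 0.000425), although the E5.5 value also lay below all E4.5 embryos, and the call was lost in cells of margin at least 3 (log2 fold change −0.67, adjusted p = 0.630). Sparc, which binds collagen IV and calcium, stood at 4286, 2652, 3270.2, 2082 and 2622 CPM in the E4.5 embryos, 690.0 CPM in the E5.5 embryo and 263 and 419.6 CPM in the E6.5 embryos, with −1.79 ± 0.51, adjusted p = 0.0214 and −2.92 ± 0.40, adjusted p = 7.52e-05. With a margin of at least 3 it was not called (log2 fold change −1.36, adjusted p = 0.338). Perlecan (Hspg2), the heparan sulfate proteoglycan, stood at 791, 452, 1015, 360.2 and 694 CPM in the E4.5 embryos, 0.511 CPM in the E5.5 embryo and 31.7 and 26.6 CPM in the E6.5 embryos, with −4.30 ± 0.53, adjusted p = 2.33e-05 at E6.5 and the lowest level at E5.5.

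Proteins that fold and modify collagen are also in the list. Serpinh1, the collagen chaperone HSP47, stood at 2076, 4030.1, 2065, 2308 and 2587 CPM in the E4.5 embryos, 548 CPM in the E5.5 embryo and 112 and 54.1 CPM in the E6.5 embryos. The stages were ordered without overlap, with −1.97 ± 0.59, adjusted p = 0.0286 at E5.5, −4.80 ± 0.52, adjusted p = 4.35e-06 at E6.5 and −2.82 ± 0.55, adjusted p = 0.00420 between them by edgeR. P4ha2, a prolyl hydroxylase subunit, was at 101, 119.6, 174, 148 and 105 CPM at E4.5, had no read at E5.5 and stood at 3.84 and 1.59 CPM at E6.5. It was at least 676-fold lower at E5.5 (edgeR adjusted p = 2.22e-05), and its log2 fold change at E6.5 was −5.37 ± 0.69, adjusted p = 3.55e-05. P4hb, Plod2, P4ha1 and Pdia4 were lower at E6.5 as well, and the calls of P4hb and Pdia4 were lost in cells of margin at least 3. The members that rose were Itgb1, the beta-1 integrin, at E5.5 (1.70 ± 0.54, adjusted p = 0.0393), and Col18a1 at E6.5, from at most 5.49 CPM to 46.5 and 56.7 CPM (4.65 ± 1.001, adjusted p = 0.00525), a call lost in cells of margin at least 3. Fibronectin (Fn1) stood at 17.9 to 56.5 CPM at E4.5, 0.128 CPM at E5.5, which is 2 reads, and 40.2 and 69.9 CPM at E6.5.

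**Figure D3:**
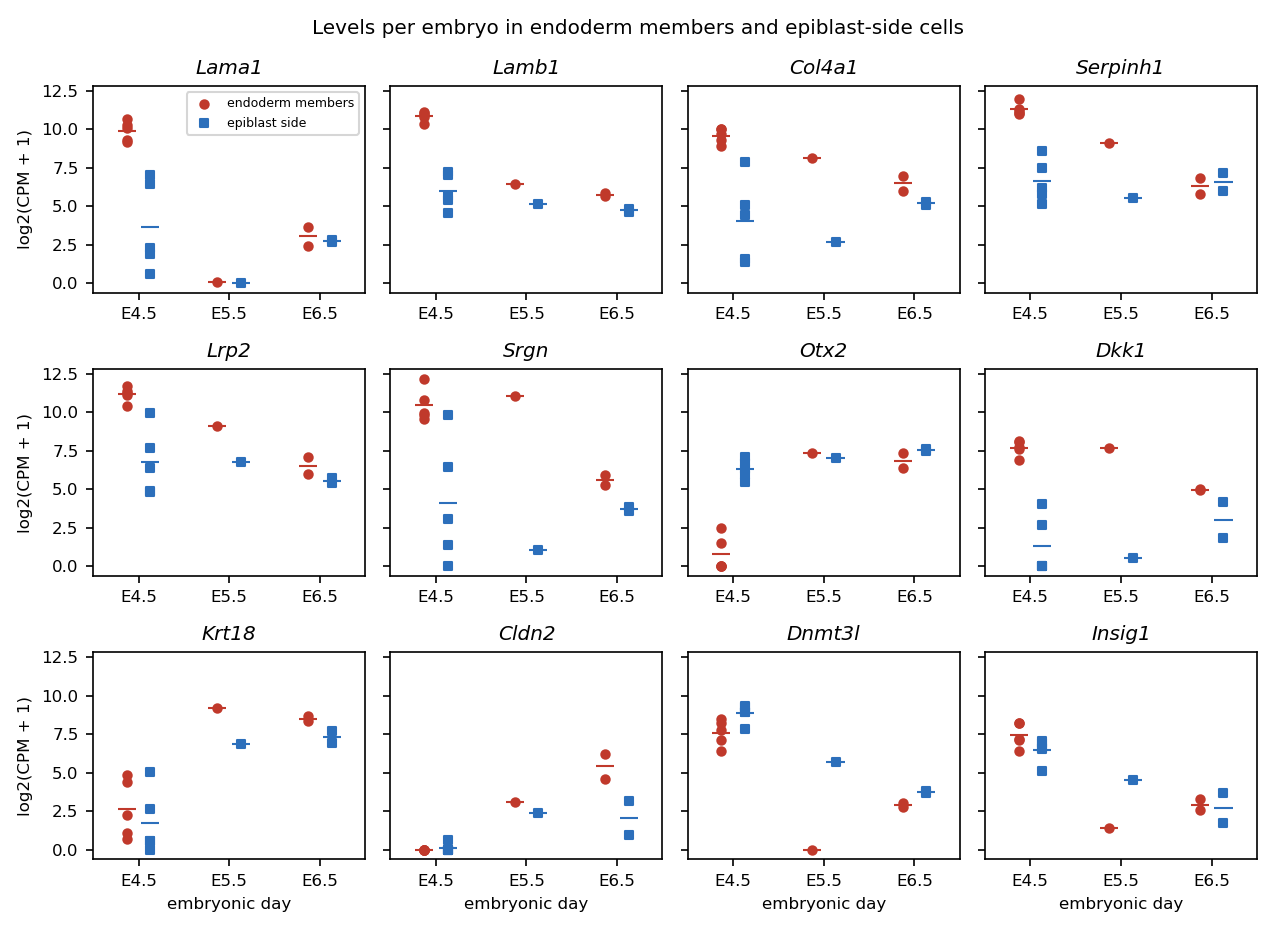
Levels as log2(CPM + 1) (y axis) of 12 genes by stage (x axis) in the chosen endoderm cells (red circles) and the epiblast-side cells (blue squares), with 1 point per embryo and lines for the mean of a stage. In endoderm the matrix genes Lama1, Lamb1, Col4a1 and Serpinh1 and the receptor Lrp2 step down from E4.5, while Otx2, Krt18 and Cldn2 step up, and Srgn is at 2097 CPM at E5.5 and under 100 CPM at E6.5.

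Markers used for parietal endoderm overlap with this list. Of 13 tested, 7 were lower at E5.5 and 7 lower at E6.5 against E4.5, and none was higher (at an unadjusted p under 0.05, none in the E5.5 and 2 in the E6.5 comparison, and none by DESeq2), beside 10.04% and 2.39% of all genes called lower. Their summed level was 6255 to 10316 CPM at E4.5, 3402 CPM at E5.5 and 611 and 794 CPM at E6.5. Srgn (serglycin), a core protein of secretory granules, differed from the laminins in its timing. It stood at 922, 1014, 742, 1799 and 4669 CPM in the E4.5 embryos, 2097 CPM in the E5.5 embryo and 60.6 and 38.6 CPM in the E6.5 embryos, overlapped E4.5 at E5.5, and was lower at E6.5 than at either stage (−5.09 ± 0.77, adjusted p = 0.000225 and −5.51 ± 0.86, adjusted p = 0.00114 by edgeR). The call against E5.5 was lost in cells of margin at least 3 (adjusted p = 0.0789). Thbd, a defining parietal gene, was at or below 4.11 CPM in all embryos. The part of parietal cells in the E4.5 level was not tested.

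Most transcription factors of the endoderm did not pass, and Sox7, Gata4, Foxa1 and Creb3l3 were among those that did. Of 18 tested, 1 was higher and 2 lower at E5.5, and 2 were higher and 3 lower at E6.5, against E4.5. The shares at E5.5, 5.56% and 11.1%, were near those of all genes, 4.39% and 10.04%, and at E6.5 4.48% and 2.39% of all genes were called. With E6.5 cells of margin at least 3, 4 were higher and 1 lower of 17 at E6.5, where 10.02% and 1.85% of all genes then were, and 1 was higher at E5.5, where 2.18% were. Sox7, an endoderm factor related to Sox17, stood at 273, 278, 248, 104 and 146 CPM in the E4.5 embryos, 29.3 CPM in the E5.5 embryo and 14.99 and 9.51 CPM in the E6.5 embryos, with −2.52 ± 0.74, adjusted p = 0.0256 and −3.88 ± 0.59, adjusted p = 0.000225 by edgeR and no overlap with E4.5, and the E5.5 call was lost with E6.5 cells of margin at least 3 (adjusted p = 0.256). Gata4 fell at E6.5, to 72.5 and 44.2 CPM from 143 to 349 CPM at E4.5 (−1.91 ± 0.47, adjusted p = 0.0160), and was at 162 CPM at E5.5, inside the E4.5 range. With E6.5 cells of margin at least 3, the call of Gata4 at E6.5 was also lost, and the log2 fold change of Sox7 at E5.5 was −2.49.

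Among factors that rose, Foxa1 had no read at E4.5, stood at 26.9 CPM at E5.5 and at 1.95 and 2.59 CPM at E6.5, at least 39.9-fold higher and at least 3.37-fold higher (edgeR adjusted p = 0.00159 and 0.0152). Creb3l3, a membrane-bound factor of liver and gut that drives lipid genes, stood at 5.46, 0, 5.70, 0.0336 and 4.14 CPM in the E4.5 embryos, 0 CPM in the E5.5 embryo and 53.1 and 43.1 CPM in the E6.5 embryos, with 4.18 ± 1.10, adjusted p = 0.0228 at E6.5. Factors that define the endoderm without passing in any stage comparison were Foxa2 (22.03 to 57.1, 35.8 and 27.6 and 23.2 CPM in stage order), Hnf4a (15.9 to 90.7, 12.8 and 58.7 and 28.1 CPM) and Sox17.

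Of 15 genes of the anterior visceral endoderm, 6 rose from E4.5 to E5.5 by the edgeR test and none fell (none lower at an unadjusted p under 0.05 or by DESeq2). At E6.5, 4 were higher and 3 lower than at E4.5, and 4 were lower than at E5.5 with none higher by edgeR, none at an unadjusted p under 0.05 and none by DESeq2. Of all genes, 4.39% were called higher at E5.5, 4.48% higher and 2.39% lower at E6.5 against E4.5, and 1.61% lower at E6.5 against E5.5. The summed level of the list was 424 to 972 CPM at E4.5, 2206 CPM at E5.5 and 421 and 615 CPM at E6.5. Otx2, a head-organising homeobox gene, stood at 0, 0, 0, 4.54 and 1.83 CPM in the E4.5 embryos, 163 CPM in the E5.5 embryo and 81.1 and 160.2 CPM in the E6.5 embryos, so that all later embryos lay above E4.5 (6.84 ± 0.97, adjusted p = 0.000120 and 6.29 ± 0.89, adjusted p = 0.000105 by edgeR). Lhx1 stood at 5.46, 16.6, 2.59, 6.76 and 4.19 CPM in the E4.5 embryos, 234 CPM in the E5.5 embryo and 44.2 and 75.6 CPM in the E6.5 embryos, with 5.39 ± 0.67, adjusted p = 3.06e-05 and 3.31 ± 0.59, adjusted p = 0.00102.

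Of the secreted inhibitors, Cer1, which binds Nodal, BMP and Wnt, had no read at E4.5, 30.7 CPM at E5.5 and 5.46 and 54.7 CPM at E6.5, at least 45.6-fold higher and at least 44.6-fold higher (edgeR adjusted p = 0.000178 and 0.000122). Sfrp5, a Wnt inhibitor, stood at 1.47, 0, 0.259, 0 and 0 CPM in the E4.5 embryos, 149 CPM in the E5.5 embryo and 12.7 and 14.3 CPM in the E6.5 embryos, with 9.54 ± 1.22, adjusted p = 4.18e-05 and 5.97 ± 1.09, adjusted p = 0.00140. Dkk1, another Wnt inhibitor, was already present in primitive endoderm, at 281, 194, 273, 210.4 and 118 CPM in the E4.5 embryos, 203 CPM in the E5.5 embryo and 31.1 and 30.02 CPM in the E6.5 embryos. Its E5.5 value lay within the E4.5 range, and it was lower at E6.5 relative to E4.5 (−2.60 ± 0.49, adjusted p = 0.00186) and relative to E5.5 (−2.84 ± 0.60, adjusted p = 0.00616). Lefty1, a Nodal inhibitor, varied among E4.5 embryos from 0 to 324 CPM, stood at 389.8 CPM at E5.5 and fell to 18.3 and 1.71 CPM at E6.5 (−5.37 ± 1.63, adjusted p = 0.0424 by edgeR).

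The homeobox genes Hhex and Hesx1 were also present before E5.5. Hhex stood at 19.6 to 67.4, 45.6 and 4.23 and 8.68 CPM in stage order and was lower at E6.5 relative to E4.5 (−2.74 ± 0.71, adjusted p = 0.0223). Hesx1 stood at 44.5, 66.4, 146, 135 and 180.2 CPM in the E4.5 embryos, 245 CPM in the E5.5 embryo and 5.49 and 4.46 CPM in the E6.5 embryos, and both E6.5 embryos lay below every earlier one (−4.38 ± 0.70, adjusted p = 0.000399 and −5.73 ± 0.83, adjusted p = 0.000799 by edgeR). Nodal itself and Eomes did not pass in any stage comparison. The E6.5 falls of Dkk1, Hhex and Hesx1 against E4.5 kept their calls in cells of margin at least 3, and that of Dkk1 against E5.5 did not.

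Growth factor signalling genes, FGF receptors among them, were more often lower than higher at E5.5 against E4.5 and more often higher than lower at E6.5 against E5.5, and calls over all genes leaned the same way. Of 31 tested, 9 were lower and 2 higher at E5.5 relative to E4.5, 9 higher and none lower at E6.5 relative to E5.5 (2 lower at an unadjusted p under 0.05, 1 by DESeq2), and 2 higher and 2 lower at E6.5 relative to E4.5. Over all genes the shares were 10.04% lower and 4.39% higher in the first comparison, 7.33% higher and 1.61% lower in the second, and 4.48% and 2.39% in the third. The medians for the first and second of these were −3.40 and 4.39, or −2.25 and 4.22 with absent members at their bound. Of the FGF receptors, Fgfr2 stood at 39.8 to 83.99 CPM at E4.5, had no read at E5.5 and stood at 12.1 and 17.99 CPM at E6.5. It was at least 299.5-fold lower at E5.5 relative to E4.5, and at least 78.4-fold higher at E6.5 relative to E5.5 (edgeR adjusted p = 0.000129 and 0.00160). Fgfr3 stood at 60.7 to 197 CPM at E4.5, 0 at E5.5 and 5.63 and 17.6 CPM at E6.5, which was also lower than E4.5 (−3.07 ± 0.66, adjusted p = 0.00525). Spry2, an FGF-induced inhibitor, stood at 60.7 to 84.7, 2.04 and 29.3 and 52.2 CPM, with −4.89 ± 0.97, adjusted p = 0.00215 into E5.5 and 4.20 ± 0.96, adjusted p = 0.00987 out of it. The low count of genes per E5.5 cell moved with these values, and its part was not tested.

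Among ligands, Fgf8 and Wnt3 rose. Fgf8 stood at 2.73, 0, 0, 0 and 19.6 CPM in the E4.5 embryos, 458 CPM in the E5.5 embryo and 32.8 and 45.9 CPM in the E6.5 embryos, with 6.72 ± 1.29, adjusted p = 0.00172 at E5.5 by edgeR, and E6.5 did not pass. Wnt3, which starts the primitive streak and is made in posterior visceral endoderm and epiblast, had no read at E4.5, 14.2 CPM at E5.5 and 38.5 and 21.2 CPM at E6.5, at least 21.05-fold higher and at least 44.3-fold higher (edgeR adjusted p = 0.000407 and 0.000117). Etv5, a transcription factor under FGF control, stood at 29.4, 38.3, 9.07, 25.1 and 15.5 CPM in the E4.5 embryos, 1.79 CPM in the E5.5 embryo and 76.4 and 113 CPM in the E6.5 embryos and was higher at E6.5 relative to E4.5 (2.20 ± 0.57, adjusted p = 0.0218). Ihh, the endodermal hedgehog ligand, stood at 4.01 to 52.1, 0.320 and 8.84 and 13.97 CPM in stage order.

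Some apical and junctional epithelial genes rose after E4.5, keratins and microvillus proteins among them, while most did not pass. Of 24 tested, 10 were higher at E5.5 and 10 at E6.5 relative to E4.5, with medians of 1.34 and 1.70, and none was lower by edgeR, at an unadjusted p under 0.05 or by DESeq2. Of all genes, 4.39% and 4.48% were called higher there. Between E5.5 and E6.5 none passed by edgeR, 2 were lower at an unadjusted p under 0.05, DESeq2 called 1 lower, and the median was 0.03. Krt18, a keratin of simple epithelia, stood at 3.78, 1.14, 27.7, 0.606 and 20.05 CPM in the E4.5 embryos, 578 CPM in the E5.5 embryo and 402 and 322 CPM in the E6.5 embryos, with 6.01 ± 0.91, adjusted p = 0.000222 and 5.23 ± 0.82, adjusted p = 0.000312 by edgeR and no overlap with E4.5. Its partner Krt8 stood at 1.26, 8.01, 87.1, 4.07 and 16.8 CPM in the E4.5 embryos, 498 CPM in the E5.5 embryo and 389 and 239.6 CPM in the E6.5 embryos, with 4.73 ± 0.94, adjusted p = 0.00220 and 3.96 ± 0.83, adjusted p = 0.00429.

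Ezrin (Ezr), which ties the actin of microvilli to the membrane, stood at 176, 90.4, 146, 67.8 and 76.9 CPM in the E4.5 embryos, 493 CPM in the E5.5 embryo and 541 and 228 CPM in the E6.5 embryos, and all later embryos exceeded all E4.5 embryos (2.48 ± 0.50, adjusted p = 0.00239 and 2.02 ± 0.42, adjusted p = 0.00377). Villin (Vil1), another microvillus protein, rose from at most 0.210 CPM to 3.83 CPM and 23.4 and 10.9 CPM (5.56 ± 1.66, adjusted p = 0.0279 and 7.62 ± 1.57, adjusted p = 0.00378). Cldn2, the claudin that makes tight junctions leaky to cations, had no read at E4.5 and stood at 7.73 CPM at E5.5, all from 1 cell, and 71.98 and 23.5 CPM at E6.5, where 26 of 27 and 17 of 18 cells had reads. It was at least 11.47-fold higher and at least 70.8-fold higher (edgeR adjusted p = 0.000407 and 2.66e-05). N-cadherin (Cdh2) had no read at E4.5, 80.2 CPM at E5.5 and 7.39 and 16.2 CPM at E6.5, at least 119-fold higher and at least 17.5-fold higher (edgeR adjusted p = 2.04e-05 and 0.000103). E-cadherin (Cdh1) stood at 60.7 to 146, 93.1 and 119.8 and 124 CPM and did not pass. Podxl, an apical sialomucin, rose at E6.5 (1.92 ± 0.46, adjusted p = 0.0122).

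Among genes of DNA methylation, 2 of 12 were lower in the E5.5 embryo, and at E6.5 there were 2 higher and 3 lower ones, relative to E4.5. The 16.7% lower at E5.5 compare with 10.04% of all genes, and the 16.7% higher and 25% lower at E6.5 with 4.48% and 2.39%. In E6.5 cells of margin at least 3, 4 of the 12 were lower, against 1.85% of all genes, and the 2 higher calls were lost. Dnmt3l, the cofactor of the de novo methyltransferases, stood at 360.3, 217, 298, 82.1 and 140.3 CPM at E4.5, had no read at E5.5 and stood at 7.21 and 5.73 CPM at E6.5. It was at least 1146-fold lower at E5.5 (edgeR adjusted p = 1.48e-05), and the log2 fold change at E6.5 was −4.84 ± 0.66, adjusted p = 6.66e-05. Dnmt3b, the main de novo enzyme of the early embryo, stood at 613, 590.1, 436, 439 and 341 CPM in the E4.5 embryos, 343 CPM in the E5.5 embryo and 727 and 1359 CPM in the E6.5 embryos, and was higher at E6.5 (1.31 ± 0.35, adjusted p = 0.0278). That call was lost in cells of margin at least 3, where its levels were 512 and 253 CPM, and without E4.5 embryo 3, 4 or 5 or E6.5 embryo 2.

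Tet2, which oxidises methylcytosine, stood at 25.5 to 79.3 CPM at E4.5, 6.01 CPM at E5.5 and 1.22 and 0.796 CPM at E6.5, and passed as lower at E6.5 (−5.40 ± 0.88, adjusted p = 0.000482 by edgeR) but not at E5.5 (adjusted p = 0.0809). Tet1 was lower at E5.5 (−2.57 ± 0.84, adjusted p = 0.0449), at 8.95 CPM against 31.5 to 93.4 CPM. Dppa3 (Stella), which protects maternal methylation, was detected in every embryo, at 10.7, 45.8, 12.96, 82.01 and 17.6 CPM in the E4.5 embryos, 144 CPM in the E5.5 embryo and 2.71 and 0.199 CPM in the E6.5 embryos, and was lower at E6.5 relative to E4.5 (−4.35 ± 1.08, adjusted p = 0.0164) and relative to E5.5 (−6.69 ± 1.32, adjusted p = 0.00445). The maintenance enzyme Dnmt1 and its guide Uhrf1 did not pass in any stage comparison.

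Most genes of glucose and sterol metabolism did not pass. Of 34 tested, 4 passed as higher and 6 as lower in the E5.5 embryo, and 5 as higher and 5 as lower at E6.5, against E4.5. Over all genes, 4.39% were higher and 10.04% lower at E5.5, and 4.48% and 2.39% at E6.5. The 5 higher at E6.5 carry or break down glucose. Slc2a1, the ubiquitous glucose transporter, stood at 172, 220.4, 162, 125 and 91.3 CPM in the E4.5 embryos, 88.1 CPM in the E5.5 embryo and 476 and 599.8 CPM in the E6.5 embryos, above E4.5 in both E6.5 embryos (2.01 ± 0.38, adjusted p = 0.00196 by edgeR). Slc2a2, the transporter of liver and yolk sac, had no read at E4.5, 16.2 CPM at E5.5 and 49.2 and 6.65 CPM at E6.5, at least 24.1-fold higher and at least 41.4-fold higher (adjusted p = 0.000573 and 0.000232). Hk2, Pgk1 and Eno1, enzymes of glycolysis, were the others. Of the 5 that fell at E6.5, Fdft1, Lss and Cyp51 make sterols, Insig1 restrains that pathway, and Fbp2 works in gluconeogenesis. Insig1 stood at 298, 82.99, 145, 139 and 291 CPM in the E4.5 embryos, 1.66 CPM in the E5.5 embryo and 8.65 and 4.94 CPM in the E6.5 embryos, with −6.54 ± 1.07, adjusted p = 0.000483 and −4.61 ± 0.68, adjusted p = 0.000158, and Lss at 176, 209, 205, 97.9 and 165 CPM in the E4.5 embryos, 6.77 CPM in the E5.5 embryo and 16.1 and 23.2 CPM in the E6.5 embryos, with −4.35 ± 0.82, adjusted p = 0.00154 and −2.93 ± 0.54, adjusted p = 0.00151.

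**Figure D4:**
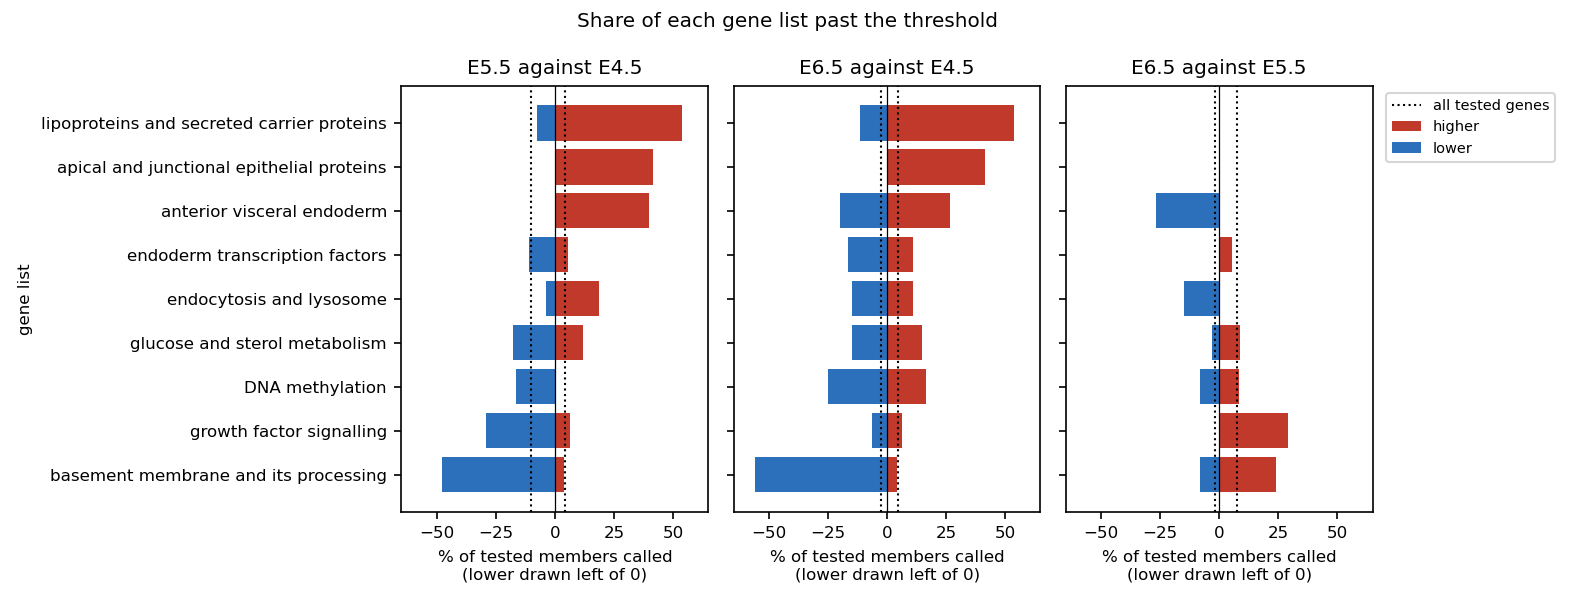
Share of tested genes called higher (red) or lower (blue) for 9 gene lists in the 3 stage comparisons, in percent, with dotted lines for the share over all 14211 genes. Carrier and epithelial lists reach furthest right of the dotted line in both comparisons with E4.5, and the basement membrane list reaches furthest left.

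Markers of other cells were counted as well. Of 7 tested epiblast markers outside the rule, Dppa5a was lower at E5.5, beside 10.04% of all genes, and relative to E4.5 the E6.5 embryos had 1 higher and 2 lower members, beside 4.48% and 2.39% of all genes. The summed level of 15 epiblast markers was 4711 to 6066 CPM in the E4.5 endoderm, 1551 CPM at E5.5, and 966 and 1732 CPM at E6.5, given as a description, since the rule used 7 of them. Much of it at E4.5 was Dppa5a, a gene of pluripotent cells, at 3319, 4998, 4413, 5133 and 4689 CPM in the E4.5 embryos, 1114 CPM in the E5.5 embryo and 95.5 and 115 CPM in the E6.5 embryos, which was lower at E6.5 (−5.26 ± 0.46, adjusted p = 2.70e-07 by edgeR). Nanog, in contrast, rose from at most 2.83 CPM at E4.5 to 37.8 and 56.7 CPM in the E6.5 embryos (5.72 ± 1.08, adjusted p = 0.00182), and stood at 22.4 and 32.8 CPM in cells of margin at least 3. Of 15 markers of extraembryonic ectoderm and trophoblast, 5 were higher and 1 lower at E6.5 relative to E4.5 (4.48% and 2.39% of all genes), among them Elf5, which had no read at E4.5 or E5.5 and stood at 32.2 and 64.97 CPM at E6.5 (at least 72.1-fold higher, adjusted p = 2.85e-05). Cdx2, a defining trophoblast gene, stood at 20.9 and 14.8 CPM there.

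Of 13 markers of streak and mesoderm, 5 were higher and 1 lower at E5.5, and 6 higher and none lower at E6.5 (none lower at an unadjusted p under 0.05 or by DESeq2), against E4.5. The shares higher over all genes were 4.39% and 4.48%. The markers included T, at 0.0531 and 19.4 CPM, and Mesp1, at 0.0886 and 48.9 CPM in E6.5 embryos 1 and 2, with far more of both in embryo 2. Lhx1, Wnt3, Mixl1 and Evx1 passed at both stages. Markers of blood and endothelium summed to at most 32.6 CPM in any embryo, and the embryonic globins Hba-x and Hbb-y had no read. Of 14 genes of the dissociation and stress response, 4 were lower at E5.5 and 1, Hspb1, at E6.5 against E4.5 (10.04% and 2.39% of all genes). Fos stood at 2.0999 to 148 CPM at E4.5, 0 at E5.5 and 4.55 and 2.15 CPM at E6.5. The part of these cells and states in the changes above was not tested.

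The largest rises at E6.5 against E4.5, by fold among called genes of at least 10 CPM whose embryos did not overlap, were Mt3, Rbp4, S100a4, Nrk, Car14, Spp2, Elf5, Cldn2, Prl8a2 and Sgce. None had a read at E4.5, and their bounds ran from at least 249.7-fold higher for Mt3 to at least 53.7-fold higher for Sgce. Levels of some rested on single cells: 1 cell held 99.5% of the Mt3 reads and 99.8% of the S100a4 reads of E6.5 embryo 2. Others had reads in most E6.5 cells: Nrk, an X-linked kinase, had reads in 26 of 27 and 18 of 18 cells of the E6.5 embryos, and Car14, a carbonic anhydrase of apical membranes, in 24 and 18. Nrk stood at 111 CPM at E5.5 and 120.4 and 69.8 CPM at E6.5, and Spp2, a secreted phosphoprotein, at 29.7 CPM and 87.8 and 22.7 CPM.

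The largest falls were Cyp4f14, Tcl1, 4930550L24Rik, Sycn, Havcr1, Fam25c, Khdc3, 1700019A02Rik, Tcf23 and Atp4a. All but Fam25c had no read at E6.5. Cyp4f14, a fatty acid hydroxylase, stood at 78.5, 132, 69.7, 249 and 148 CPM at E4.5 and had no read at E5.5 or E6.5, at least 1569-fold lower at E6.5 (edgeR adjusted p = 5.54e-07). Tcl1, an Akt co-activator of early embryos, stood at 139.6, 128, 98.2, 99.4 and 71.4 CPM at E4.5 and 0.0639 CPM at E5.5, and was at least 1243-fold lower at E6.5. Havcr1, a phosphatidylserine receptor of epithelia, stood at 27.2 to 54.2 CPM at E4.5 and was at least 495-fold lower.

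At E5.5 against E4.5 the largest rises were Rbp4, Nrk, Sgce, Car14 and Cdh2, and 1 of the 8 cells held 100% of the Car14 reads, 86.7% of the Nrk reads and 68.9% of the Sgce reads, the top cell being taken for each gene. The largest falls were Htra1, Glipr2, Gpx2, Fam198b and Fam25c, which had no read at E5.5. Htra1, a secreted protease that acts on matrix, stood at 501, 219, 441, 278 and 318 CPM at E4.5 and 39.3 and 13.7 CPM at E6.5, and was at least 1834-fold lower at E5.5 (edgeR adjusted p = 3.91e-06). Gpx2, an epithelial glutathione peroxidase, stood at 60.1 to 791 CPM at E4.5 and 4.15 and 6.89 CPM at E6.5. The 5 largest rises from E5.5 to E6.5 (Plxna1, Trh, Gng2, Fads1 and Zfp146) and falls (Pnpla3, 2410137M14Rik, Ppp1r1b, 4933408B17Rik and Col20a1) each rested largely on 1 cell of an embryo, which held between 70.98% and 100% of its reads.

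Some of these calls were lost when 1 embryo was left out, which at E6.5 leaves 1 sum in the group. Why they were lost was not tested. Among 109 genes called at E6.5 against E4.5 and named by the rules or lists, 32 were not called without E6.5 embryo 1, at edgeR adjusted p from 0.0512 to 0.922, among them Apom, Fabp1, Fabp3, Fgb, Ctsh, Col18a1, Gata4, Foxa1, Creb3l3, Hhex, Fgfr3, Etv5, Krt8, Ezr, Vil1, Podxl, Slc2a2 and Hk2. Without E6.5 embryo 2, 37 of 108 were not called, at adjusted p from 0.0506 to 0.97, among them Fabp1, Fabp3, Fgb, Cpn1, Lrpap1, Ctsh, Col18a1, Gata4, Foxa1, Creb3l3, Dkk1, Hhex, Etv5, Podxl, Dnmt3b, Dppa3, Nanog, Slc2a1, Hk2, Pgk1, Eno1, Fdft1, Cyp51 and Fbp2. Leaving out 1 E4.5 embryo lost 2 to 9 of the 109, at adjusted p from 0.0502 to 0.0867. Without the E5.5 embryo, 9 of 108 were lost, among them Fcgrt, Fgb, Foxa1, Sfrp5, Ctsh and Dppa3, at adjusted p from 0.052 to 0.194.

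At E5.5 against E4.5, leaving out 1 embryo lost 2 to 9 of 95 such calls, at adjusted p from 0.0505 to 0.123, among them Lrp2, Itgb1, Fabp1, Vil1, Tet1 and Etv5. From E5.5 to E6.5, 17 of 48 calls were lost without E6.5 embryo 1 and 28 without embryo 2, at adjusted p from 0.0503 to 0.446. Lefty1 was lost in both cases, Ctsc, Lrp2 and Slc2a1 without embryo 2, and Dkk1, Hesx1, Srgn, Serpinh1 and Dppa3 in neither. With the 2 E4.5 embryos of prefix P1 alone, 15 of 109 calls at E6.5 and 12 of 95 at E5.5 were lost, and with the 3 of prefix P2, 11 and 12.

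With the 18 E6.5 cells of margin at least 3 in place of the 45, 19 of 108 such calls at E6.5 against E4.5 were not made, at edgeR adjusted p from 0.0574 to 0.885, P4hb and Pdia4 among them beside those given above. At E5.5 against E4.5, where no E6.5 cell enters either group but the 3 stages share 1 estimate of the spread, 32 of 95 calls were lost, at adjusted p from 0.0511 to 0.384. They included Apoe, Spink1, Cpn1 and Fabp1 of the carriers, Lrp2, Ctsh and Npc2 of the uptake list, Lamb1, Sparc, Serpinh1, P4hb and Itgb1 of the basement membrane list, and Sox7, Etv5, Ihh, Tet1, Dppa5a, Eno1, Lss, Fdft1 and Cyp51. Between E5.5 and E6.5, 23 of 48 were lost, at adjusted p from 0.0512 to 0.971, among them Lrp2, Ctsc, Npc2, Serpinh1, Col18a1, Srgn, Dkk1, Lefty1, Spry2, Slc2a1, Dppa5a and Hspb1. Under that choice 7 basement membrane genes were lower at E5.5 against E4.5, 3 of 12 parietal markers at E5.5 and 4 at E6.5, while 11 of 23 carriers were higher at E5.5 and 15 at E6.5, and 8 and 11 of 23 epithelial genes. In the uptake list 2 genes were higher at E5.5, and in the metabolic list 1 was higher and 1 lower there. At E6.5 against E4.5, 6 of 30 growth factor genes were higher and 2 lower, and 9 of 34 metabolic genes were higher and 5 lower. Over all 13273 genes of that fit, 2.18% were higher and 5.62% lower at E5.5, and 10.02% and 1.85% at E6.5, against E4.5. From E5.5 to E6.5, 4.05% rose and 0.294% fell. Fold changes of that fit include edgeR's scaling between sums and are not ratios of CPM. At E6.5 against E4.5, Hnf4a had 1.73 there, at 58.3 and 43.9 CPM against a mean of 50.7 CPM. Gata4 had −0.70, at 95.3 and 33.5 CPM against a mean of 256 CPM. The part of this scaling in the lost calls was not tested.

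Over all 14211 genes, 977 were called at E6.5 against E4.5, of which 65.2% were higher by edgeR, 44.9% of DESeq2's calls were higher, and 84.4% with a margin of at least 3. At E5.5 against E4.5, 30.4% of 2051 calls were higher by edgeR and 19.6% by DESeq2. Of the 1427 genes lower at E5.5, 821 had no read there, and of the 1041 genes higher at E6.5 relative to E5.5, 638 had no read at E5.5.

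To ask which changes differed from those of neighbouring cells, the 89 kept cells on the epiblast side were summed for the same 8 embryos. The difference of the 2 changes was tested by edgeR with a term for the embryo, over 14315 genes. Epiblast-side cells were those with a margin of at most −1 at E4.5 and, with at least 7000 genes, at E6.5, and all kept E5.5 cells whose number is no multiple of 12. The E6.5 epiblast-side sums came from 3 and 13 cells and held carrier transcripts as described. Mesp1 had reads in 8 of the 13 cells of embryo 2, up to 771 CPM, so this side may hold nascent mesoderm. In the 4 epiblast-side cells of E4.5 embryo 5, the endoderm transcripts Srgn and Lama1 reached 1825 and 498 CPM. From E4.5 to E5.5 the change was higher in endoderm for 9 of 26 carrier genes and lower for none (0.901% and 4.04% of all genes), with none lower at an unadjusted p under 0.05 or by DESeq2. On the epiblast side, Ttr stood at 0 to 9.47 CPM at E4.5, 0.0252 CPM at E5.5 and 333 and 209 CPM at E6.5, and the log2 difference in change was 11.20 ± 0.97, adjusted p = 3.47e-14 to E5.5 and −1.11 ± 0.53, adjusted p = 0.456 to E6.5. Apom stood at 1.60 to 81.6, 0.126 and 91.3 and 64.1 CPM there, with a difference of 11.49 ± 1.08, adjusted p = 7.29e-13 to E5.5 and 0.58 ± 0.60, adjusted p = 0.930 to E6.5. To E6.5, 5 of the 26 carriers had a higher change in endoderm and none a lower one (1.48% and 0.545% of all genes), with 4 lower at an unadjusted p under 0.05 and none by DESeq2.

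From E4.5 to E6.5 the change was lower in endoderm for 11 of 25 basement membrane genes and higher for 2, against 0.545% and 1.48% of all genes. Serpinh1 stood at 33.97 to 385 CPM on the epiblast side at E4.5, 46.1 CPM at E5.5 and 139 and 63.5 CPM at E6.5, and its log2 difference was −4.63 ± 0.52, adjusted p = 5.81e-10. Lamb1 there stood at 22.4 to 151, 33.9 and 27.7 and 24.1 CPM, with −3.4998 ± 0.51, adjusted p = 1.09e-06, and Col4a1 at 1.62 to 231, 5.34 and 38.5 and 32.9 CPM, with −3.81 ± 0.81, adjusted p = 0.00196. With E6.5 cells of margin at least 3, 6 of the 25 were lower (1.25% higher and 0.477% lower over the 14245 genes tested there). Otx2 on the epiblast side stood at 43.8 to 134, 128 and 198 and 178 CPM, and rose more in endoderm both to E5.5 (6.91 ± 1.46, adjusted p = 0.00134) and to E6.5 (5.97 ± 1.08, adjusted p = 0.000148). Of 24 epithelial genes, 2 were higher to E5.5 (0.901% of all genes) and none differed to E6.5 (2 lower at an unadjusted p under 0.05, none by DESeq2). Krt18 on the epiblast side stood at 0 to 32.5, 115 and 121 and 205 CPM.

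Within a stage, single cells varied widely. Ttr ranged from 0 to 768 CPM over the E4.5 cells, of which 40 of 51 had a read, from 859 to 4872 CPM at E5.5, and from 301 to 20056 CPM at E6.5, so the ranges of E4.5 and E5.5 did not meet. Apob had reads in 4 of 51 cells at E4.5, 8 of 8 at E5.5 and 45 of 45 at E6.5. Srgn ranged from 422 to 11825 CPM at E4.5 and from 708 to 3203 CPM at E5.5, and did not exceed 234 CPM at E6.5. Nanog had reads in 41 of 45 cells at E6.5, up to 315 CPM, against at most 1.63 CPM in the E5.5 cells. Reads carry no molecular identifiers, so the limits of 3 reads cover counting error only.

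**Figure D5:**
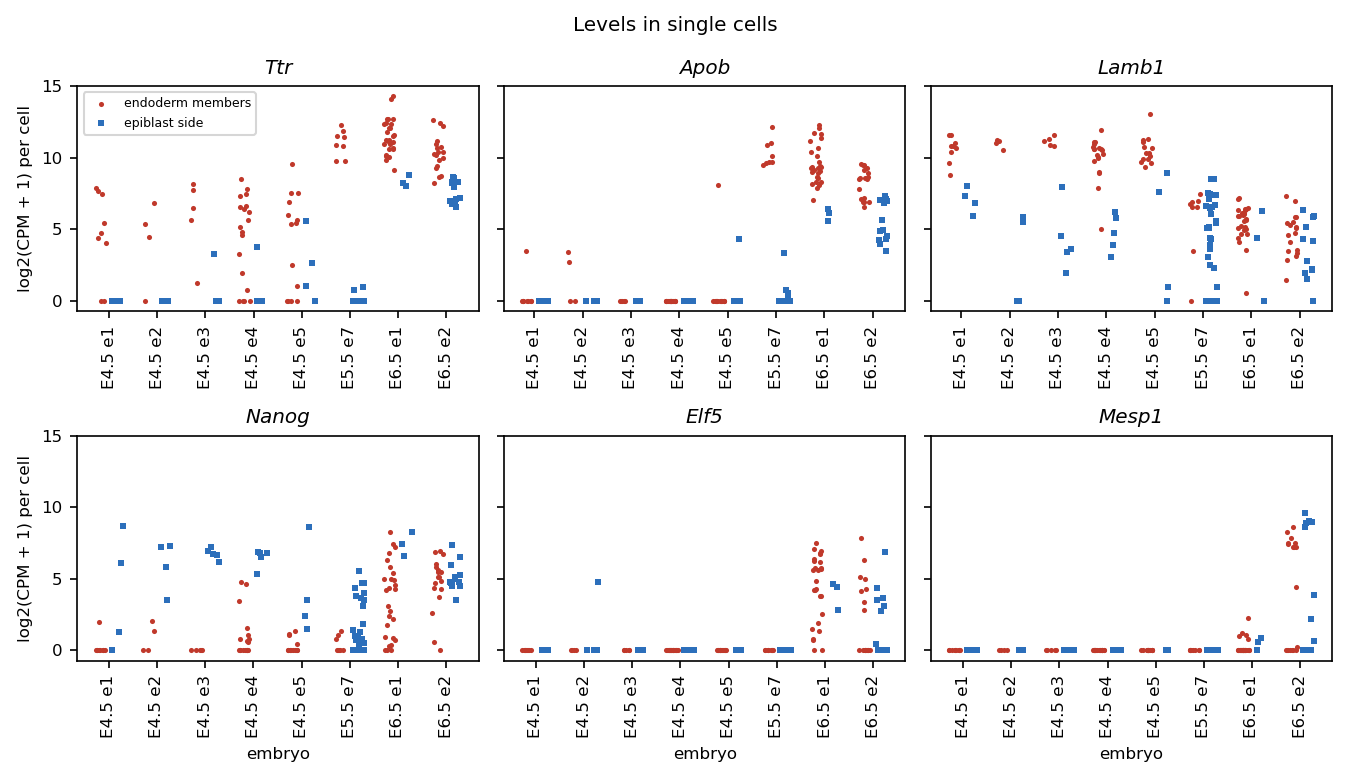
Levels of Ttr, Apob, Lamb1, Nanog, Elf5 and Mesp1 as log2(CPM + 1) in single cells of each of the 8 embryos, 1 point per cell, with chosen endoderm cells in red and epiblast-side cells in blue. In endoderm Ttr and Apob step up at E5.5 and spread widely at E6.5, Lamb1 steps down, and the high levels of Mesp1 lie in cells of E6.5 embryo 2.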

How the data were processed

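RNA of single mouse cells was measured with scM&T-seq, which reads the transcriptome and the bisulfite-treated DNA of the same cell, and the DNA libraries were not analysed here. The authors deposited 1 table of counts, the whole number of reads per gene and cell without normalization, for 264 cells and 22084 genes, of which 21907 were given a symbol through their Ensembl identifier. The submitters' processing notes name Trim Galore 0.4.2 and 0.4.5, cutadapt 1.8.1, HISAT2 2.1.0, Bismark 0.19.0, featureCounts, R 3.4.3 and the build GRCm38. The annotation and the use of strand in counting are not given in the sources used here, so genes that overlap, antisense genes and close copies can share reads. Reads carry no molecular identifiers, and doublets were not called.

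Stage and embryo were taken from the labels, which name 5 embryos at E4.5, more than the study's methods do. Cells with at least 50000 reads and 2000 genes were kept, and the chosen cells were summed by embryo into 8 sums of 1747123 to 56446994 reads. The members and the 16 gene lists were chosen with earlier results of these data known. Sums were scaled by TMM, filtered by edgeR's filterByExpr and tested with the quasi-likelihood test of edgeR 4.0.16 (R 4.3.3, limma 3.58.1) in 1 fit of 3 stages, with p adjusted by Benjamini and Hochberg at a threshold of 0.05. Changes were set against the epiblast side in a fit of 16 sums with a term for the embryo. A group without reads was given a floor of 3 reads per embryo, and its fold is a bound. The method was tested on simulated data.

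Genes were named when they belong to a list and passed in at least 1 stage comparison, or when they were among the 10 largest rises and falls at E6.5 against E4.5 or the 5 largest in the other comparisons, with a mean of at least 10 CPM in a group and no overlap between embryos. Members that did not pass are named with values. Some list members count in the totals of their lists and are not reported here by name. The alternatives were RLE size factors, DESeq2 1.42.0, no filter, limma on mean CPM per cell with pseudocounts of 1 and 5, stricter cells (200000 reads and 4000 genes), other margins, cells thinned to 50000 reads, only the compared groups, E4.5 embryos of 1 prefix, the embryo number as a block, and leaving out each embryo. Tables and figures were made with Python 3.11.15, pandas 2.3.3 and numpy 2.4.6.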

Additional observations from a re-analysis of the deposited data

Results flagged for a closer look

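Of 109 named genes with at least 10 CPM in an E4.5 embryo, 2 had 1 embryo whose gap to the nearest other, on the log2(CPM + 1) scale, exceeded 0.71 of the range over the 5 embryos, the critical value of Dixon's test. Fgb reached 13.2 CPM in embryo 3 against at most 0.626 CPM in the others, and Lrpap1 reached 2675 CPM in embryo 1 against at most 1851 CPM in the others. Chance alone sets an embryo apart in this way in about 1 of 20 groups.

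The change from E4.5 to E6.5 differed between endoderm and epiblast side by the edgeR test of the difference for 29 of 136 genes named in the text, given on the log2 scale and counted as endoderm minus epiblast side. It was higher in endoderm for the carriers Apoa2 (7.86), Apoc1 (2.91), Apoe (2.91) and Trf (13.7), the IgG receptor Fcgrt (9.33), the matrix genes Col18a1 (4.94) and Fn1 (3.66), Otx2 (5.97), Etv5 (3.20), the hormone gene Trh (8.93), and the pluripotency genes Nanog (6.81) and Dppa5a (1.29). Car14, Mt3 and Sgce, which had no read in E4.5 endoderm, were higher too, at adjusted p of 0.000125, 0.000708 and 0.0366. It was lower for the receptor Lrp2 (−3.18), for the basement membrane genes Lama1 (−5.64), Lamb1 (−3.50), Lamc1 (−3.30), Hspg2 (−3.42), Col4a1 (−3.81) and Sparc (−1.42), and for the collagen-modifying proteins Serpinh1 (−4.63), Plod2 (−4.35), P4ha2 (−7.24) and P4hb (−1.79). Dkk1 (−4.45), Srgn (−3.97) and Fam198b (−5.19) were lower as well.

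From E4.5 to E5.5, where each side has 1 embryo at the later stage, 44 of the 136 differed. The carriers Apoa2 (9.31), Apob (10.46), Apom (11.49), Apoe (4.46), Ttr (11.20), Afp (13.43), Spink1 (4.97) and Trf (16.75) were higher in endoderm, as were the uptake and lysosome genes Fcgrt (12.25), Ctsc (3.30), Npc2 (2.81), Lgmn (4.66) and Cd63 (1.97), and Otx2 (6.91), Srgn (4.85) and Dppa3 (3.58). Gata4, Sox17, Sox7, Hnf4a, Lhx1 and 2410137M14Rik had no read on the E5.5 epiblast side and were higher, at adjusted p of 0.00165, 0.0115, 0.0140, 0.0466, 0.00941 and 0.000157, and so were Car14 and Sgce, absent from E4.5 endoderm, at 0.00112 and 0.0142. In endoderm itself, Gata4, Sox17, Sox7 and Hnf4a had log2 fold changes of −0.34, −0.60, −2.52 and −1.67 from E4.5 to E5.5. The difference was lower for Lamb1 (−3.31), Hspg2 (−7.39), Plod2 (−6.31), the de novo methyltransferase Dnmt3b (−2.49) and the sterol genes Insig1 (−4.49) and Lss (−3.54). The other 14 had no read in E5.5 endoderm and were lower, at adjusted p of 1.08e-08 for Dnmt3l, 8.60e-09 for Fam198b, 4.23e-07 for Glipr2, 2.82e-06 for Htra1, 3.10e-06 for Gng2, 4.73e-06 for Plxna1, 7.42e-06 for Gpx2, 1.84e-05 for P4ha2, 4.48e-05 for Fam25c, 0.000131 for Fads1, 0.0157 for Zfp146, 0.0160 for Fgfr2, 0.0238 for 1700019A02Rik and 0.0271 for Col18a1. The sign of the difference was opposite at the 2 stages for Srgn and Col18a1. The genes were named with their values known.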

How the results depend on the processing

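The count of genes called at E6.5 against E4.5, 977 by edgeR, was 1525 by limma with a pseudocount of 1 and 1575 with E6.5 cells of margin at least 3, a choice made after seeing the data. It was 1464 by DESeq2, which shared 864 genes with edgeR. At E5.5 against E4.5, 2051 genes were called, 3865 by DESeq2, 1183 by limma with a pseudocount of 5, 1035 with the margin of 3, and 1093 with cells thinned to 50000 reads. Between E5.5 and E6.5, 1270 were called, 3310 by DESeq2, 576 with the margin of 3, 372 thinned, and 4316 with only the embryos of that comparison in the fit. The difference from the epiblast side was called for 290 genes to E6.5, 545 by DESeq2 and 180 thinned, and for 707 to E5.5, 1936 by DESeq2, 430 with the margin of 3 and 330 thinned. Of the calls at E6.5 against E4.5, 65.2% were higher by edgeR and 53.3% with thinned cells.

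Leaving out 1 embryo gave 284 to 962 genes at E6.5 against E4.5, 1661 to 2110 at E5.5 against E4.5, 544 to 1376 between E5.5 and E6.5, and for the difference from the epiblast side 45 to 349 genes to E6.5 and 299 to 903 to E5.5. The lowest counts came from leaving out an E6.5 embryo, which gave 406 and 284 at E6.5 against E4.5, 745 and 544 against E5.5, 49 and 45 for the difference to E6.5, and 299 and 309 for that to E5.5, and the difference to E6.5 was called for 92 genes without the E5.5 embryo. The cause was not tested.

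E4.5 and E6.5 embryos share the numbers 1 and 2. Sums with the same number had correlations of −0.0268 and −0.000524 in their deviations from the stage means, so they share only a number. With the number as a replicate block, 542 genes were called at E6.5 against E4.5. No paired analysis was possible because the E5.5 embryo shares its number with no other, which holds for both comparisons with E5.5. Without the E5.5 embryo those comparisons have no value, and E4.5 embryos of 1 prefix were not run for E5.5 against E6.5.

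The sign of a log2 fold change reversed in 6 cases, none of them called after it. At E6.5 against E4.5, Plxna1 was −1.10 with the margin of 3, and −0.34 and 4.37 without E6.5 embryo 1 and 2. In the same order Fads1 was 4.65 and −1.94, and Zfp146 was 5.27 and −0.57. Between E5.5 and E6.5, Lrpap1 was 0.19 with the margin of 3 and Fbp2 was 5.85 in cells of 200000 reads and 4000 genes. Calls of named genes, in the order E5.5 against E4.5, E6.5 against E4.5 and E6.5 against E5.5, were all kept with RLE size factors and with no filter. DESeq2 lost 4 of 92 (Afp and Fgb among them), 5 of 107 (Ctsh, Fgb and Sfrp5 among them) and 5 of 48 (Elf5 and Lefty1 among them). Stricter cells lost 16 of 93 (Apoa2, Foxa1, Cldn2 and Lrp2 among them), 3 of 109 and 7 of 46, with Fbp2 reversed. Thinned cells lost 18 of 92, 6 of 108 and 27 of 46 (Lama1, Dnmt3l, Fgfr2, Fgfr3, Creb3l3 and Hhex among the last). Limma lost 20 of 95, 16 of 109 and 11 of 48 with a pseudocount of 1 and 30, 22 and 25 with 5, Lrp2, Ctsh, Fabp1, Fcgrt and Mttp among them. Margins of 2 and 1 lost 5, 9 and 6, fits of only the compared groups 8, 9 and 2, and the replicate block 24 of 109 at E6.5 against E4.5, Mttp, Ezr, Vil1, Podxl, Foxa1, Dnmt3b and Slc2a1 among them. A lone E5.5 embryo of 8 cells and 2 E6.5 embryos, one with 2 cells of margin at least 3, limit what can be called, and a median of 4223.5 genes per cell limits detection at E5.5.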

Other observations

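In the uptake and lysosome list, the change from E4.5 to E5.5 was higher in endoderm than on the epiblast side for 6 of 26 genes by edgeR and lower for none, with 2 lower at an unadjusted p under 0.05 and 1 by DESeq2, where 0.901% of all genes were higher and 4.04% lower. Lgmn, the lysosomal protease legumain, stood at 541 CPM in E5.5 endoderm and at 2.69 CPM on its epiblast side, with a log2 difference of 4.66 ± 0.93 (SE, edgeR adjusted p = 0.000655). Cd63, a tetraspanin of late endosomes, stood at 1540.2 and 137 CPM there, with a difference of 1.97 ± 0.54 (adjusted p = 0.0189). In the list of endoderm factors, Gata4, Sox17, Sox7 and Hnf4a had no read on the epiblast side at E5.5 and differed at edgeR adjusted p of 0.00165, 0.0115, 0.0140 and 0.0466.

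Genes of the Y chromosome summed to 182 CPM in the endoderm of E4.5 embryo 4 and 47.5 CPM in embryo 5, to 0.319 CPM in E6.5 embryo 1, and to 0 in the other embryos. On the epiblast side they summed to 141 CPM in E4.5 embryo 4 and to 0.215 CPM in embryo 5, so the 2 sides of embryo 5 differed, and the fit with a term for the embryo takes them as 1 embryo. Without embryo 5 that fit called 346 genes to E6.5 in place of 290, and 833 to E5.5 in place of 707. The sex of the embryos is not given in the sources used here.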
